A study of Mus musculus with 35 samples.

Results

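The heart transcriptomes of IRS1KO and IRS2KO mice were compared 3 days after transaortic constriction (TAC), a tight loop around the aorta that loads the left ventricle with pressure. The comparison took every gene in the 6 IRS1KO TAC libraries and the 6 IRS2KO TAC libraries, 12 of the 35 libraries of the series, and the groups came from the sample labels. All mice were of C57Bl/6/FVB strain and 6 weeks old, and RNA was taken from the heart apex. IRS1KO mice are labelled alphaMHC-Cre X IRS1-flox and IRS2KO mice alphaMHC-Cre X IRS2-flox, so both carry the same Cre transgene, whose promoter is active in cardiomyocytes, and differ in the floxed gene. The constriction was a 7-0 suture tied around a 27-G needle. The 6 IRS1KO and 6 IRS2KO sham libraries and the 5 WT TAC libraries (IRS2-flox without Cre) were used to place the differences. No group with Cre alone was analysed here. Whether every library is a mouse of its own is not stated in the labels, and p-values therefore measure the spread between libraries, which may be technical. The strain is mixed, and a difference in genetic background between the lines cannot be told apart from an effect of the deleted gene.

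IRS1 and IRS2 are adaptor proteins that bind the activated insulin and IGF-1 receptors, are phosphorylated on tyrosine and recruit phosphatidylinositol 3-kinase. Through AKT this pathway promotes glucose use, protein synthesis and growth of the heart muscle cell and keeps FoxO transcription factors, which drive atrophy and autophagy genes, out of the nucleus. Both adaptors are expressed in cardiomyocytes and in other cells of the heart, which the alphaMHC promoter does not target.

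The libraries held 11707111 to 14609467 reads assigned to genes. Reads from the mitochondrial genome made up 16.5 to 23.6% in IRS1KO TAC and 15.6 to 28.0% in IRS2KO TAC. IRS2KO TAC replicates 1 and 4 stood apart with the highest shares, 26.1% and 28.0%, and with little Tnc, the matrix protein tenascin C, a gene chosen after its values were seen. Tnc was at 964 and 685 normalized counts in these libraries and between 6987 and 11088 in the other 4, while IRS1KO TAC ranged from 3005 to 9096 and sham libraries of both lines from 11.2 to 30.0. Values below are normalized counts, and a log2 difference is IRS1KO minus IRS2KO on the log2(value + 1) scale. Each p is from limma, adjusted by the Benjamini-Hochberg method over 13695 genes and called below 0.05.

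The targeted genes were examined first. Irs1, on chromosome 1 from 82233101 to 82291416 (GRCm38, minus strand), was at 0, 21.4, 26.7, 19.4, 80.3 and 16.7 in IRS1KO TAC replicates 1 to 6. In IRS2KO TAC it was at 343, 229, 223, 314, 167 and 146. All 6 IRS1KO libraries were below all 6 IRS2KO libraries, with means of 27.4 ± 27.4 and 237 ± 78.1 (SD, n = 6 each), and the log2 difference was -3.81 (SE 0.78, limma adjusted p = 0.035). The call was lost in 15 of 27 alternative settings, and the adjusted p over all 27 (limma, edgeR or DESeq2) ranged from 1.8e-05 to 0.13. The direction held in each. Without IRS1KO TAC replicate 5, the highest Irs1 library of its group, the IRS1KO mean was 16.8.

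Irs2, on chromosome 8 from 10984681 to 11008458 (minus strand), was at 543, 211, 959, 228, 185 and 248 in IRS1KO TAC and at 78.6, 196, 107, 91.6, 128 and 122 in IRS2KO TAC. The groups overlapped through a single pair of values, 185 in IRS1KO and 196 in IRS2KO, and 2 IRS1KO libraries were far above the rest. The means were 396 ± 306 and 121 ± 41.2 (SD, n = 6 each), and the log2 difference of 1.48 did not pass the test (SE 0.38, limma adjusted p = 0.12). It passed with all 6 groups in the fit and with DESeq2. In sham, where the spread was smaller, the log2 difference of 1.31 passed (limma adjusted p = 5.7e-05). The WT TAC mean of Irs2, 239 ± 68.6 (SD, n = 5), lay between those of the 2 lines after TAC. In bulk tissue, fewer cells of a type and less RNA per cell cannot be told apart, which applies to each level given here.

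**Figure D1:**
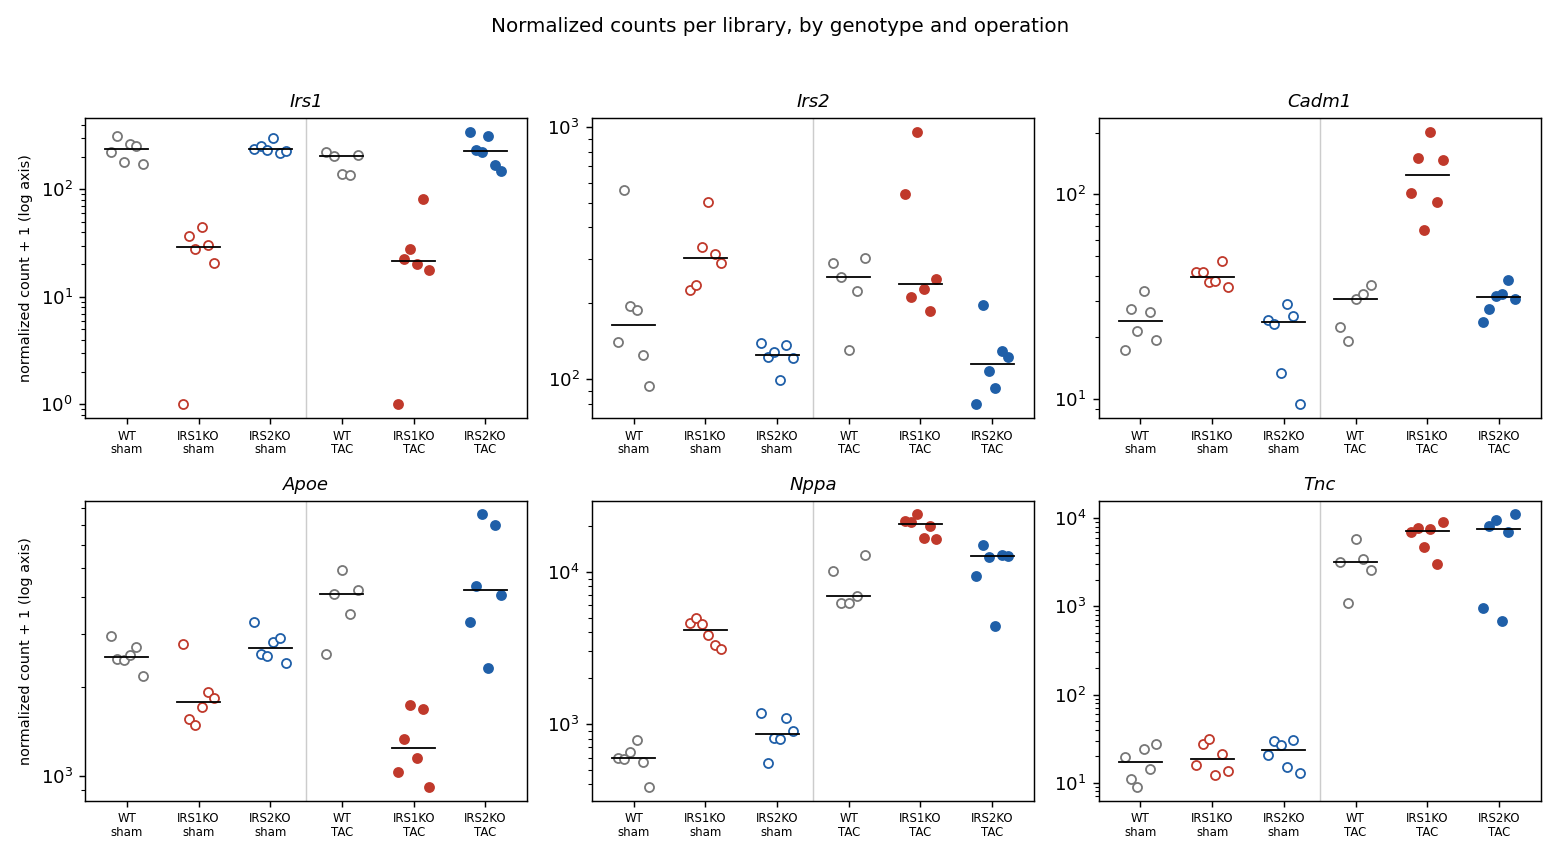
Normalized counts plus 1 (log axis) of Irs1, Irs2, Cadm1, Apoe, Nppa and Tnc in each library, by genotype and operation; filled points are the 2 groups compared after TAC, open points the others, and bars are medians. The 6 IRS1KO TAC libraries lie above the 6 IRS2KO TAC libraries for Cadm1 and Nppa and below them for Irs1 and Apoe, while Tnc overlaps.

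Over all genes, 140 of 13695 differed between the lines after TAC (1.02%). Of these, 64 were higher in IRS1KO (0.467%) and 76 lower (0.555%). The median absolute log2 difference of the called genes was 1.19, and 84 had a ratio of means of at least 2. At an unadjusted p below 0.05 there were 1096 genes (8.0%). In 214 genes (1.56%) the 6 libraries of one line were all above the 6 of the other, 108 with IRS1KO higher (0.789%) and 106 with IRS1KO lower (0.774%), and 132 of the 140 called genes were among them. Of the called genes 104 encode proteins. Another 28 were annotated as pseudogenes, 20% of the called genes against 3.86% of the genes tested.

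Cadm1 and Apoe were called in both states, with the larger log2 difference after TAC. Cadm1, an immunoglobulin-like cell adhesion molecule, lies on chromosome 9 from 47530173 to 47857637 (plus strand). It was at 100, 150, 65.7, 201, 90.2 and 145 in IRS1KO TAC and at 22.7, 26.6, 30.9, 31.6, 37.2 and 29.9 in IRS2KO TAC. No library overlapped, and the lowest IRS1KO library was above the highest IRS2KO library by more than the whole range of IRS2KO. The IRS1KO mean of 125 ± 49.4 was 4.20 times the IRS2KO mean of 29.8 ± 4.88 (SD, n = 6 each; log2 difference 1.96, SE 0.24, limma adjusted p = 0.00057). In sham the means were 39.2 and 19.8 (log2 difference 1.05, limma adjusted p = 0.0053). The 2 differences were not shown to be unequal (difference 0.91, limma adjusted p = 0.34). WT TAC libraries, at 18.2 to 35.1, overlapped IRS2KO and lay below every IRS1KO library.

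Apoe, the apolipoprotein that macrophages and other cells release for lipid transport, lies on chromosome 7 from 19696109 to 19699188 (minus strand). It was at 1035, 1328, 1734, 1147, 1682 and 918 in IRS1KO TAC and at 3301, 4376, 7612, 2307, 7022 and 4052 in IRS2KO TAC. Every IRS2KO library was above every IRS1KO library, and the lowest IRS2KO value was that of replicate 4. The IRS2KO mean of 4778 ± 2100 was 3.66 times the IRS1KO mean of 1307 ± 339 (SD, n = 6 each; log2 difference -1.79, SE 0.28, limma adjusted p = 0.0043). In sham the log2 difference was -0.58 (limma adjusted p = 0.0088). The further -1.21 after TAC did not pass (limma adjusted p = 0.12), although it passed with DESeq2 (adjusted p = 0.012) and without IRS2KO TAC replicate 4 (limma adjusted p = 0.036). WT TAC libraries, at 2574 to 4954, overlapped IRS2KO and lay above IRS1KO.

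Apoe was the called member of 19 tested apolipoprotein and cholesterol efflux genes, whose median log2 difference was 0.07 against 0.0078 over all genes. None of 26 tested macrophage and monocyte markers was called, and their median was 0.14. Their summed level ranged from 12483 to 28672 in IRS1KO TAC and from 9990 to 28520 in IRS2KO TAC, so the sums overlapped almost throughout. The part of macrophage number in the Apoe difference was not tested. The summed levels of the other 11 cell type lists also overlapped between the lines. They held fibroblast, neutrophil, T and NK cell, B cell, endothelial, smooth muscle and pericyte, Schwann and neuronal, atrial, adipocyte, erythroid and mesothelial markers. No tested marker in them was called, against 1.02% of all genes. Few markers of some lists were tested: 1 of 12 T and NK cell, 2 of 10 adipocyte and 3 of 10 neutrophil markers. So were 3 of 8 B cell, 3 of 8 mesothelial, 4 of 12 Schwann and neuronal and 5 of 10 atrial markers. The tested mesothelial markers had a median log2 difference of -2.15, with 1 above 0. The atrial gene Sln and the brown adipocyte gene Ucp1 were at 0 in all 12 libraries.

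The largest called differences included 3 near-identical ribosomal protein sequences. Rps3a1 encodes a protein of the small ribosomal subunit (chromosome 3, 86137940 to 86142702), and Rps3a2 (chromosome 14, 88123017 to 88123808) and Rps3a3 (chromosome 13, 108670603 to 108671397) are annotated as processed pseudogenes, intronless copies of such an mRNA. The copies differ from the Rps3a1 coding sequence at 4 of 792 and 9 of 795 positions, an identity of 99.5% and 98.9%. A stretch of 120 bases of the annotated transcripts is shown (GENCODE vM21, GRCm38, 5′ to 3′, coding positions 526 to 645 of Rps3a1). It contains 2 of the bases at which each copy differs from Rps3a1. Reads that lie within the coding sequence can be assigned to a copy only by such bases. Capitals mark positions at which any of the 3 sequences differs.
Rps3a1: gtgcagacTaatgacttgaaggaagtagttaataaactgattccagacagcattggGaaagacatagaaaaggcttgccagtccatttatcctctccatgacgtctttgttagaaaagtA
Rps3a2: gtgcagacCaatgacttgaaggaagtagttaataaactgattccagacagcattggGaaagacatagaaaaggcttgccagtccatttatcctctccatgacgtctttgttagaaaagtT
Rps3a3: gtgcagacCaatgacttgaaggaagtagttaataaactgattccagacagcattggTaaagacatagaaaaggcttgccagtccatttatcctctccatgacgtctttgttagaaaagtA

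Rps3a1 was at 4752, 4548, 4355, 5064, 4581 and 4896 in IRS1KO TAC and at 1668, 2119, 1812, 1524, 2093 and 1839 in IRS2KO TAC. It was 2.55-fold higher in IRS1KO (log2 difference 1.36, SE 0.09, limma adjusted p = 2.1e-06). Its copies were the other way round: Rps3a2 ranged from 12.4 to 25.3 in IRS1KO and from 356 to 484 in IRS2KO, a mean 22-fold lower (log2 difference -4.42, SE 0.16, limma adjusted p = 4.9e-09). Rps3a3 ranged from 48.6 to 59.6 in IRS1KO and from 1135 to 1775 in IRS2KO, a mean 27.3-fold lower (log2 difference -4.73, SE 0.11, limma adjusted p = 3.2e-11). For each of the 3 the lines were separated by a wide gap, and the sham log2 differences of 1.38, -4.47 and -4.74 were nearly the same. Within the coding sequence, reads of such copies can be told apart only by the few bases at which they differ. The 3 values are therefore uncertain as levels of separate genes.

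**Figure D2:**
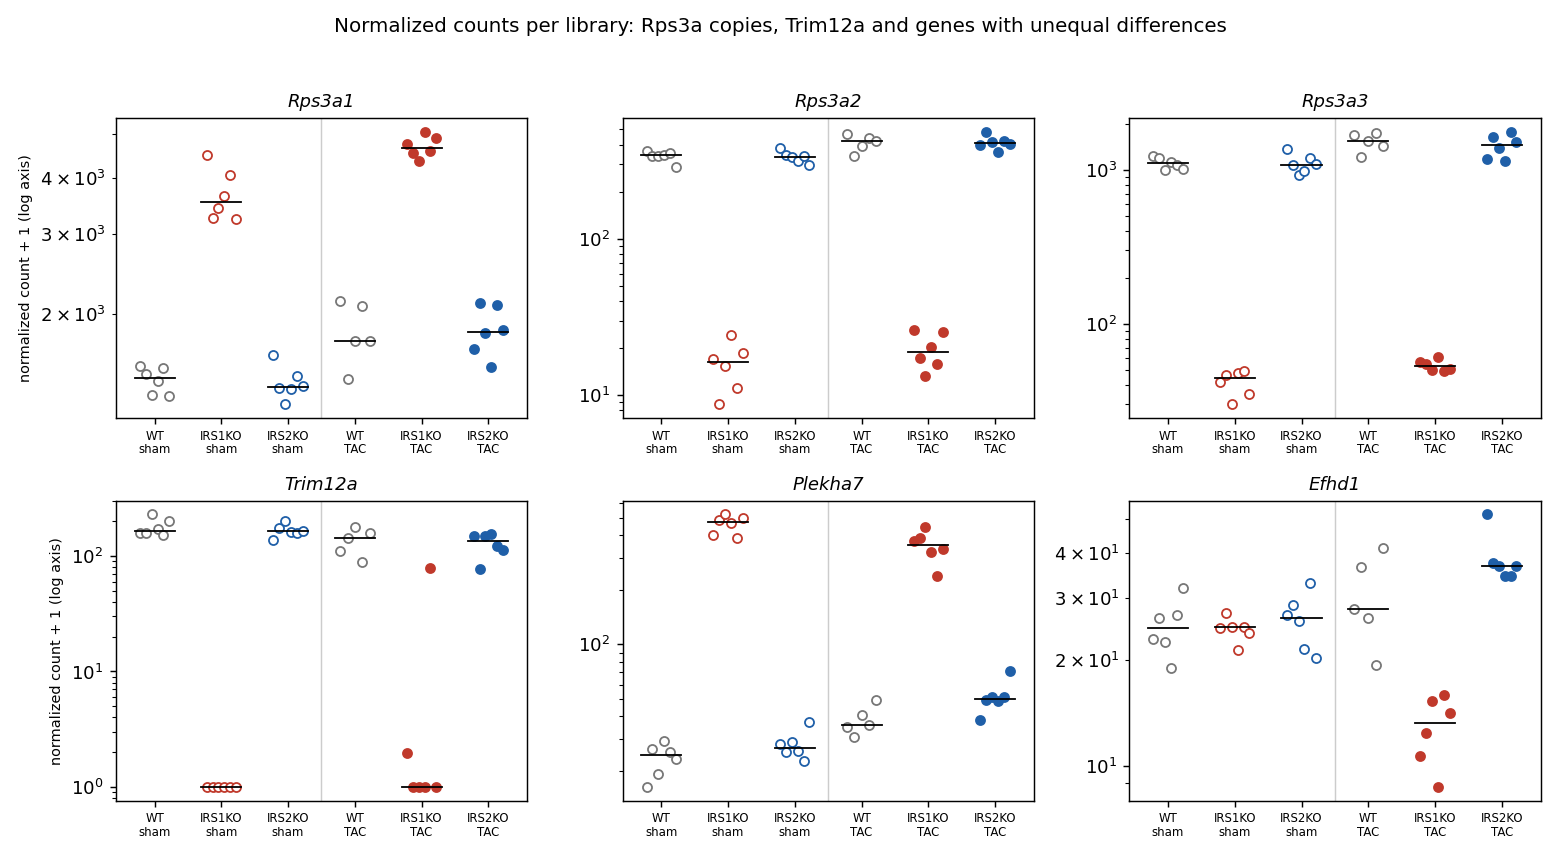
Normalized counts plus 1 (log axis) of the 3 Rps3a sequences, Trim12a, Plekha7 and Efhd1 in each library, by genotype and operation; filled points are the groups compared after TAC and bars are medians. Rps3a1 is high where Rps3a2 and Rps3a3 are low, IRS1KO TAC replicate 5 is the only IRS1KO TAC library with Trim12a near the IRS2KO values (78.3), and Efhd1 separates the lines after TAC but not in sham.

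Among the other named genes that were higher in IRS1KO after TAC, Zfp697, a zinc finger protein, was at 730, 837, 894, 698, 333 and 956 in IRS1KO and at 34.1, 203, 158, 27.5, 96.8 and 150 in IRS2KO. The lowest IRS1KO value, that of replicate 5, was still above the highest IRS2KO value (6.65-fold by means, log2 difference 2.99, SE 0.48, limma adjusted p = 0.0056). The noncoding RNA Dubr ranged from 153 to 242 in IRS1KO and from 26.5 to 63.3 in IRS2KO (log2 difference 1.97, limma adjusted p = 0.00016). Mapk4, an atypical MAP kinase, had medians of 202 and 64.3, and its groups overlapped by little: IRS1KO replicate 5 and IRS2KO replicate 2 were both at 137. Its call (limma adjusted p = 0.020) was lost when any of 6 libraries was left out, IRS1KO TAC replicates 1, 3 and 6 and IRS2KO TAC replicates 3, 5 and 6, where the highest adjusted p was 0.057.

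Glo1, which detoxifies methylglyoxal, ranged from 1475 to 1867 in IRS1KO and from 702 to 1052 in IRS2KO (1.88-fold, limma adjusted p = 0.00048). Mboat2, a lysophospholipid acyltransferase, was 2.17-fold higher (limma adjusted p = 0.0014). Dysf, the membrane repair protein dysferlin, ranged from 3140 to 4132 against 1553 to 2485 (1.80-fold, limma adjusted p = 0.0034). Neither Glo1, Mboat2 nor Dysf overlapped between the lines. The rest of the 15 named rises were Snapc1 of the small nuclear RNA gene activating complex (2.18-fold), the secreted factor Ndnf (1.87-fold), the mRNA cap scavenger Dcps (1.80-fold), the Toll-like receptor adaptor Tirap (1.73-fold), Trappc6a of the TRAPP trafficking complex (1.66-fold) and Parm1 (1.65-fold). Their limma adjusted p ranged from 0.00028 for Snapc1 to 0.047 for Parm1, which lost its call in 16 of 27 alternatives, among them the omission of any one of 9 libraries.

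Of the named genes lower in IRS1KO, Nxpe4 was at 13.6 to 27.1 in IRS1KO and 156 to 246 in IRS2KO (9.77-fold lower, log2 difference -3.24, limma adjusted p = 1.0e-07). Rab4a, a GTPase of recycling endosomes through which glucose transporters and receptors return to the surface, was at 21.4 to 31.6 and 86.1 to 139 (4.01-fold lower, limma adjusted p = 5.7e-06). Ush1c, the scaffold protein harmonin, was at 26.3 to 47.6 and 69.9 to 303 (4.95-fold lower, limma adjusted p = 0.0051). These 3 genes were low in every IRS1KO library and did not overlap, though Ush1c varied widely within IRS2KO. Slc1a5, a glutamine transporter, was 2.05-fold lower (142 to 199 against 273 to 380, limma adjusted p = 0.00016). Gramd1b, which moves cholesterol from the plasma membrane to the endoplasmic reticulum, was 2.00-fold lower (203 to 274 against 380 to 534, limma adjusted p = 6.4e-05). Alox5, which makes leukotriene precursors, was 1.99-fold lower (44.9 to 69.2 against 81.0 to 134, limma adjusted p = 0.0034).

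Acp1, a low molecular weight phosphatase that acts on phosphotyrosine, was at 172 to 183 in IRS1KO and 277 to 476 in IRS2KO (limma adjusted p = 0.00057), a narrow band in one line and a wide one in the other. The ubiquitin ligase Lnx1 (2.87-fold), the dynein light chain gene Dynlt1b (2.88-fold) and Bche, butyrylcholinesterase (2.02-fold), were also lower. Bche lost its call (limma adjusted p = 0.034) when any of 8 libraries was left out and without IRS2KO TAC replicates 1 and 4 together. Dynlt1b belongs to a family of near-identical copies, so its count is uncertain.

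Most of these differences were also present without pressure load. In sham, fitted in separate libraries, 2148 of 13695 genes were called (15.7%), 922 higher (6.73%) and 1226 lower (8.95%) in IRS1KO. When libraries were instead scaled to equal totals, 74.9% of the sham calls were higher in IRS1KO, against 42.9%, with a shift of 0.095 in the median of all genes. Of the 140 genes called after TAC, 123 were called in the same direction in sham, 87.9% of the TAC calls and 5.73% of the sham calls. Of the 140, 136 had the same sign in sham, against 58.7% of all genes tested. The residual spread between libraries was wider after TAC, with a median SD of 0.25 on the log2 scale against 0.17 in sham. The counts of calls therefore do not compare the size of the line difference in the 2 states. Hspa8, the constitutive cytosolic chaperone, was called in both states: it was at 7123 to 9900 in IRS1KO TAC and 11219 to 15530 in IRS2KO TAC (log2 difference -0.55, limma adjusted p = 0.036), and its sham log2 difference was -0.67. The difference between the states, 0.13 (95% confidence interval -0.14 to 0.39), did not pass (limma adjusted p = 0.84). Its call after TAC was lost in 14 of 27 alternatives.

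The test of the difference between the TAC and sham line differences called 21 genes (0.153%), 9 with a higher value after TAC (0.0657%) and 12 with a lower one (0.0876%), and 4 of them were also among the 140. Efhd1, a calcium-binding mitochondrial protein chosen after its values were seen, was at 9.71, 11.4, 14.3, 7.74, 14.9 and 13.1 in IRS1KO TAC and at 50.6, 36.6, 35.9, 33.6, 33.5 and 35.9 in IRS2KO TAC. All 6 IRS1KO libraries were well below the IRS2KO libraries (log2 difference -1.61, SE 0.18, limma adjusted p = 0.00029). In sham the lines overlapped at means of 23.4 and 25.0. The mean was 1.98-fold lower after TAC than in sham in IRS1KO and 1.51-fold higher in IRS2KO, and the difference of -1.53 passed (limma adjusted p = 0.0023).

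Phyhip was at 130, 224, 247, 164, 249 and 174 in IRS1KO TAC and at 346, 377, 299, 348, 465 and 403 in IRS2KO TAC, with no overlap (log2 difference -0.94, limma adjusted p = 0.011). In sham the lines had means of 205 and 204, and the difference of -0.95 between the states passed by little (limma adjusted p = 0.039). That call was lost with the same total per library and when any of 16 libraries was left out, where the adjusted p rose to 0.096. Plekha7, a protein of adherens junctions, was at 236 to 442 in IRS1KO TAC and 37.2 to 70.3 in IRS2KO TAC (6.87-fold, limma adjusted p = 4.2e-07) and was further apart in sham, at means of 458 and 27.1 (difference -1.29, limma adjusted p = 0.0054). Nxpe4 also differed more in sham, at means of 7.50 and 221 (difference 1.55, limma adjusted p = 0.014).

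The other 17 of the 21 genes were not called after TAC. Acta2, the smooth muscle actin, was among them and was chosen after its values were seen. It had sham means of 5603 and 1588, while after TAC it ranged from 3549 to 6024 in IRS1KO and from 2941 to 5739 in IRS2KO. The values after TAC overlapped (log2 difference 0.27, limma adjusted p = 0.85), and the difference between the states was -1.54 (limma adjusted p = 0.0023). Without IRS1KO TAC replicate 5 the test called 79 genes in place of 21, and omission of each other library gave 9 to 30.

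Nppa, which encodes atrial natriuretic peptide and is a marker of load on the heart, showed no overlap without passing the test after TAC. It was at 21465, 21340, 23883, 16764, 20066 and 16311 in IRS1KO TAC and at 9348, 14886, 12552, 4420, 12785 and 12757 in IRS2KO TAC. The IRS1KO values were all higher (log2 difference 0.93, SE 0.26, limma adjusted p = 0.17). The difference passed with all 6 groups in the fit (limma adjusted p = 0.015) and with DESeq2 (adjusted p = 0.021). In sham the means were 4045 and 888 (log2 difference 2.21, limma adjusted p = 7.1e-06), and the change of the difference was -1.28 (limma adjusted p = 0.10, and 0.0030 without IRS2KO TAC replicate 4). Myl1, the fast skeletal and embryonic myosin light chain, was called after TAC and not in sham. It was at 390, 277, 298, 248, 385 and 321 in IRS1KO TAC and at 937, 666, 595, 952, 708 and 507 in IRS2KO TAC (2.27-fold lower, limma adjusted p = 0.0023), with a sham log2 difference of -0.32 and no called difference between the states (-0.85, limma adjusted p = 0.21).

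**Figure D3:**
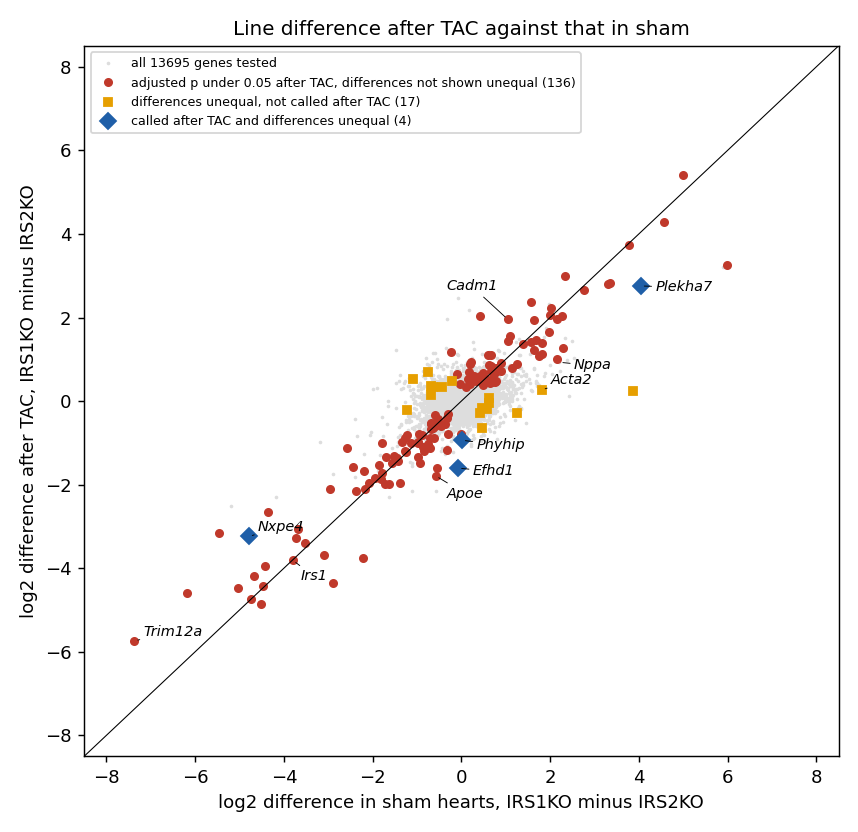
Log2 difference IRS1KO minus IRS2KO after TAC (vertical axis) against that in sham (horizontal axis) for each of 13695 genes; the line marks equal differences. Of the genes called after TAC, 136 (red) were not shown to depart from the line, 4 (blue diamonds) differ from sham by the test, and 17 orange squares depart from the line without a call after TAC.

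Set beside WT TAC hearts, IRS2KO was the line nearer to WT for most of these genes. The WT mice are labelled with the same floxed gene as IRS2KO mice, and IRS1KO mice with another. Nearness through line background therefore cannot be told apart from an effect of the deleted genes. In 133 of the 140 genes the WT TAC mean was nearer to IRS2KO TAC on the log2 scale, and the IRS1KO mean was above both others in 63 and below both in 76. The limma fit of IRS1KO TAC against WT TAC called 228 genes (1.66%), 110 higher (0.803%) and 118 lower (0.862%), with 150 calls without IRS1KO TAC replicate 2 and 435 without replicate 5. The fit of IRS2KO TAC against WT TAC called 0 (0%). It did not call Irs2 either, the gene floxed in IRS2KO, at means of 121 in IRS2KO TAC and 239 in WT TAC. The 0 therefore does not show equal levels. In that fit 334 genes had an unadjusted p below 0.05 with limma and 347 with edgeR, which also called 0. These comparisons share their libraries with the comparison of the lines. For Cadm1 the log2 differences from WT TAC were 2.11 in IRS1KO (limma adjusted p = 0.0013) and 0.15 in IRS2KO, and for Apoe -1.57 (limma adjusted p = 0.00095) and 0.22. When libraries were instead scaled to equal totals, 61.5% of the calls of IRS1KO TAC against WT TAC were higher, against 48.2%, and the median of all genes was 0.14.

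IRS1KO TAC replicate 5 stood apart on 1 stretch of chromosome 7, an interval chosen after the values were seen. Trim12a, a member of the TRIM5 family of antiviral restriction factors, was at 78.3 in this library and at 0.97, 0, 0, 0 and 0 in the other 5, where a count of 0 allows up to 3 reads. It was at 75.8 to 154 in IRS2KO TAC and at 0 in all 6 IRS1KO sham libraries. Genes that separated the lines in sham by at least 2 on the log2 scale without overlap, with a mean of at least 10, and differed by at least 1 after TAC were then placed on a scale from 0 (the IRS2KO TAC mean) to 1 (the mean of the other IRS1KO TAC libraries). On the 10 such genes between 90 and 110 Mb of chromosome 7, replicate 5 had a median position of 0.35, with 9 of 10 below 0.7. The other 5 libraries had medians of 1.06 to 1.38 there, with 1 gene below 0.7 at most. On the 37 such genes elsewhere replicate 5 had a median of 1.05. This library was also the highest of its group for Irs1 and the lowest for Zfp697 and Plekha7.

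**Figure D4:**
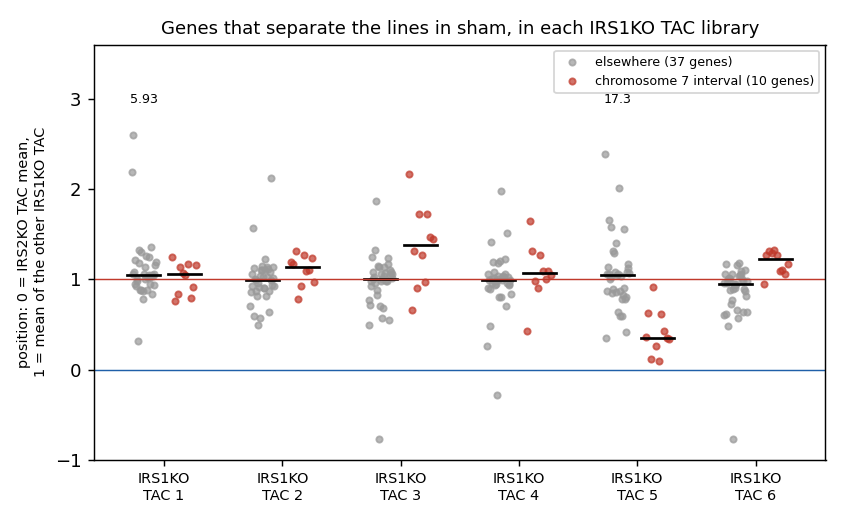
Position of each IRS1KO TAC library on genes that separated the lines in sham, from 0 (IRS2KO TAC mean) to 1 (mean of the other 5 IRS1KO TAC libraries), for 10 genes of a chromosome 7 interval (red) and 37 genes elsewhere (grey); bars are medians, and values of 5.93 and 17.3, beyond the axis, are printed as numbers. Replicate 5 has a median of 0.35 in the interval and 1.05 elsewhere.

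The called members of the interferon-stimulated list, 4 of 33 tested (12.1%, against 1.02% of all genes), lie there. Trim12a, Trim5, Trim30d and Trim34a all lie in the interval, in 1 cluster of TRIM genes between 104244457 and 104507849. Trim30d ranged from 2.86 to 26.8 in IRS1KO TAC and from 44.4 to 103 in IRS2KO TAC (log2 difference -2.66, limma adjusted p = 0.0035), and Trim5 from 0 to 15.9 and from 21.6 to 45.6 (log2 difference -3.28, limma adjusted p = 0.0057). Replicate 5 gave the highest IRS1KO value of both. Trim12a overlapped only through this library (log2 difference -5.74, limma adjusted p = 0.0060), and its call was lost with edgeR (adjusted p = 0.19). Trim34a differed less (log2 difference -1.34, limma adjusted p = 0.017), and lost its call without IRS2KO TAC replicate 5 and without replicates 1 and 4 together. The list as a whole had a median log2 difference of -0.09. Genes of this cluster are similar in sequence, so their counts are uncertain. Without replicate 5, 145 genes were called in place of 140, and 123 of the 145 were among the 140.

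Next to the floxed loci, 3 of 108 tested genes within 10 Mb of Irs1 were called after TAC (2.78%, against 1.02% of all genes), Usp40, Efhd1 and Asb1, all lower in IRS1KO. The deubiquitinase gene Usp40 was at 337 to 426 in IRS1KO TAC and 543 to 634 in IRS2KO TAC (log2 difference -0.63, limma adjusted p = 0.00021). Asb1 was called at a limma adjusted p of 0.044 and lost the call in 17 of 27 alternatives. Within 10 Mb of Irs2, 4 of 73 were called (5.48%, against the same 1.02%). The higher 3 in IRS1KO were Tubgcp3 of the microtubule-nucleating complex (log2 difference 0.51, limma adjusted p = 0.0019), the lipid flippase Atp11a (0.38, limma adjusted p = 0.022) and Trappc5 of the TRAPP complex (0.46, limma adjusted p = 0.014), and the predicted gene Gm40466 was lower (-1.99, limma adjusted p = 0.0035). The Atp11a call was lost in 12 of 27 alternatives. In sham the shares were 20.4% and 23.3% near Irs1 and Irs2, against 15.7% of all genes.

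Of 1011 distinct genes tested in the 50 gene lists, 8 were called after TAC (0.791%, against 1.02% of all genes) and 263 in sham (26.0%, against 15.7%). After TAC 45 lists had no called member. The insulin receptor and substrate list had Irs1 as its called member among 19 tested, and its median was 0.02. None of 10 IGF ligand and binding protein genes, 42 PI3K, AKT and mTOR components or 30 FoxO targets and atrophy genes was called, and their medians were 0.06, 0.02 and 0.21. The IGF-1 receptor gene Igf1r was at 586 to 704 in IRS1KO TAC and 446 to 774 in IRS2KO TAC (log2 difference 0.19, limma adjusted p = 0.86). Insr, the insulin receptor gene, was at 1584 to 2703 and 972 to 2013 (log2 difference 0.59, limma adjusted p = 0.35), and passed in 4 of 27 alternatives, at 0.046 without IRS2KO TAC replicates 1 and 4. Both receptor genes overlapped between the lines. The growth factor gene Igf2, with the smallest p of the IGF list, was at 189 to 367 and 175 to 263 (log2 difference 0.38, limma adjusted p = 0.50).

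The FoxO list leaned upward, with 25 of 30 genes above 0, while in sham its median was -0.16 with 2 higher and 10 lower calls. The list includes Irs2, the gene floxed in IRS2KO, which gave its highest log2 difference after TAC, 1.48. Over all genes the median after TAC was 0.0078. Bnip3, a mitophagy receptor, was at 716 to 1103 in IRS1KO TAC and 360 to 789 in IRS2KO TAC (log2 difference 0.58, limma adjusted p = 0.23). It passed in 5 of 27 alternatives, among them the fit without IRS2KO TAC replicates 1 and 4 (limma adjusted p = 0.040). Ddit4, an inhibitor of mTOR complex 1, was at 651 to 1710 and 412 to 715 (log2 difference 0.83, limma adjusted p = 0.14), and its highest value, in IRS1KO TAC replicate 1, lay far from the others. Ddit4 passed with DESeq2 (adjusted p = 0.014). The 15 glucocorticoid-responsive genes had the median farthest from 0 after TAC of the 42 lists with at least 10 tested genes, 0.36, with 13 above 0 and none called. In sham their median was -0.43. Tsc22d3, a glucocorticoid-induced leucine zipper, was at 1063 to 2037 in IRS1KO TAC and 556 to 1007 in IRS2KO TAC, without overlap (log2 difference 0.71, limma adjusted p = 0.092). It passed in 5 of 27 alternatives, with DESeq2 at an adjusted p of 0.0066.

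Several metabolic lists were below 0 for most members, without a call. Of the 12 libraries compared, the mitochondrial share was highest in IRS2KO TAC replicates 1 and 4. Of 48 nuclear oxidative phosphorylation genes 1 was above 0 (median -0.11), of 24 tricarboxylic acid cycle genes 2 (median -0.12), of 36 fatty acid genes 6 (median -0.16) and of 13 mitochondrial genome mRNAs 1 (median -0.17). These lists' medians were 0.040, 0.0055, 0.027 and -0.017 in the fit with the mitochondrial share as covariate. That fit was added after the data were seen and is described below. For the mitochondrial genome mRNAs that covariate is their own share of the reads. The part of the mitochondrial share in the downward lean of these lists was not tested. Not every metabolic list leaned this way. Of 33 glycolysis and glucose use genes, to which Hk2 belongs, 17 were above 0 (median 0.0060). Of 23 sterol synthesis and LDL uptake genes, 13 were (median 0.0089). Hk2, the first enzyme of glucose use in the heart, was at 2641 to 3609 in IRS1KO TAC and 3658 to 5161 in IRS2KO TAC without overlap (log2 difference -0.44, limma adjusted p = 0.14). It passed in 4 of 27 alternatives, with DESeq2 at an adjusted p of 0.0070. Structural and matrix lists had no called member either: medians were -0.14 over 22 cardiomyocyte structural genes, 0.12 over 46 extracellular matrix genes and 0.09 over 27 cardiac stress genes. Acta1, the skeletal actin that stressed hearts express, was at 10054 to 18975 and 13530 to 31126 (log2 difference -0.66, limma adjusted p = 0.32). The desmosome gene Pkp2 was at 2657 to 2841 and 1934 to 2550 without overlap (log2 difference 0.28, limma adjusted p = 0.19). It passed in 3 of 27 alternatives, with DESeq2 at an adjusted p of 0.0011.

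**Figure D5:**
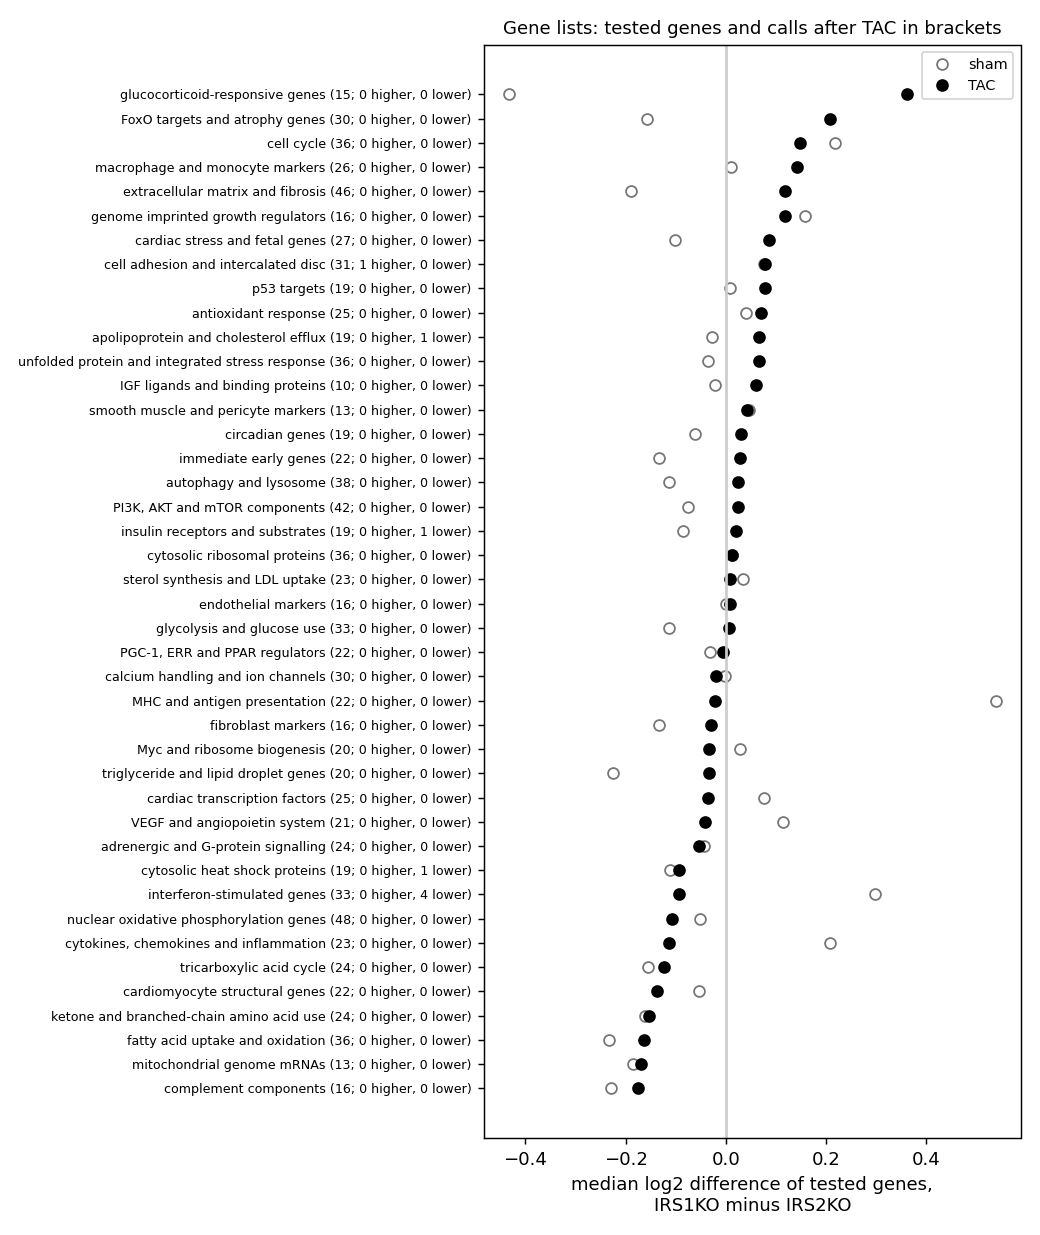
Median log2 difference IRS1KO minus IRS2KO over the tested genes of each list with at least 10 tested, after TAC (filled) and in sham (open); brackets give the number of genes tested and of calls after TAC. Medians after TAC lie between -0.18 for complement components and 0.36 for glucocorticoid-responsive genes.

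Because the mitochondrial share differed among libraries within both groups, a fit with it as a covariate was added after the data were seen. It called 432 genes (3.15%), among them 139 of the 140, and lowered the median residual SD from 0.25 to 0.18. The call that it lost was that of Irs1, the gene floxed in IRS1KO. The IRS2KO libraries with the highest share had the lowest Tnc, so the covariate is not independent of the response to TAC. In this fit 46 of 1011 list genes were called (4.55%). The FoxO list had 4 of 30 called, all higher in IRS1KO: Insr, Bnip3, Klf15, a transcription factor of fasting metabolism, and Trim63, the atrophy ubiquitin ligase MuRF1. The adhesion and intercalated disc list had 4 of 31 higher and 1 lower (Cadm1, Cadm4, Ctnna1, Dsc2 and Pkp2), and 2 of 16 complement genes, C3 and C1s1, were lower. Without the covariate C3 was at 474 to 970 in IRS1KO TAC and 770 to 1703 in IRS2KO TAC, and its log2 difference of -0.96 did not pass (limma adjusted p = 0.090). It passed in 7 of 27 alternatives, at an adjusted p of 0.024 in limma without IRS1KO TAC replicate 5.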

How the data were processed

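Poly(A) RNA libraries were made with a stranded TruSeq kit, per the labels' protocols. Per the file headers, the authors deposited a normalized count signal for 27012 genes and 35 libraries. The submitters' processing notes name HISAT2 2.0.6, HTSeq 0.7.1, DESeq2 and GRCm38. The strand setting of the counting was not given in the sources used. Values were whole multiples of 1 step for 100% of genes in each library (tolerance 0.001), so reads were recovered for the count tests. GENCODE vM21 held 99.5% of the identifiers. The test was limma 3.58.1 (R 4.3.3; trend, robust) on log2(value + 1) for 13695 genes averaging at least 10 over all libraries, fitting the groups compared only; folds in words are ratios of group means. Tests were two-sided. Log2 values understate changes of low genes. The members and lists were chosen with earlier results of these data known. Named were Irs1, Irs2, Cadm1 and Apoe; the 15 largest called rises and falls averaging at least 100 in their higher group (no predicted names, pseudogenes or Y-linked genes); and up to 4 called or the 2 lowest-p members of each list, not all of which are reported. Exceptions are marked. Alternatives were other pseudocounts, filters, scalings, fits and library omissions, edgeR 4.0.16 (146 calls on recovered reads) and DESeq2 1.42.0. The steps were tested on simulated data: of 200 genes changed among 13695 in the comparison of the lines after TAC, 83% of 2-fold and 42% of 1.5-fold changes were called, with 10 false among 135 calls. The changed genes were drawn only above a mean cut higher than the filter used in the test. Noise was simulated separately for each gene, whereas libraries can deviate in many genes together, so these rates may not hold for the real comparison. Precision is limited by the spread between libraries (median residual SD 0.25 on the log2 scale after TAC) and by the reads per library. A count of 0 allows up to 3 reads, covering counting error only.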

Additional observations from a re-analysis of the deposited data

Results flagged for a closer look

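For 5 genes the line difference after TAC differed from that in sham by the test of the difference itself: the log2 values of TAC minus sham were -1.29 for Plekha7, 1.55 for Nxpe4, -0.95 for Phyhip, -1.53 for Efhd1 and -1.54 for Acta2. A single library far from the other 5 of its group was found in 9 of 136 groups of values checked, 6.62%, where chance gives about 1 in 20. IRS1KO TAC replicate 5 was high for Irs1 (80.3), Trim12a (78.3) and Trim5 (15.9), 3 of these 9. IRS1KO TAC replicate 1 was high for Ddit4 (1710) and for the stress-induced gene Chac1 (133), whose log2 difference of 1.14 did not pass (limma adjusted p = 0.10), though it did in 4 of 27 alternatives, with DESeq2 at an adjusted p of 0.0063. IRS1KO TAC replicate 6 was low for Atp11a (1654), and IRS2KO TAC replicate 1 was high for Efhd1 (50.6). IRS1KO TAC replicate 2 was high for the mesothelial markers Upk3b (5.70) and Msln (22.1), which ranged from 0 to 1.98 and from 0 to 4.86 in the other 5 libraries of the group and from 2.79 to 26.5 and 6.20 to 40.0 in IRS2KO TAC.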

How the results depend on the processing

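The count of 140 line differences after TAC became 80 with a mean of at least 50 (fewer genes tested), 323 with all 6 groups in the fit, 88 with the replicate block, 291 with DESeq2 and 432 with the mitochondrial share as covariate. Leaving out 1 library gave 107 to 145. Of those calls, 104 (without IRS1KO TAC replicate 4) to 123 (without IRS1KO TAC replicate 5) were among the 140. Leaving out IRS2KO TAC replicates 1 and 4 gave 124, 101 of them among the 140. Without IRS1KO TAC replicate 5 as well there were 139, 102 of them among the 140. Scaling libraries to equal totals gave 133, with 69 higher and 64 lower in IRS1KO, and 106 of them were among the 140. By the correlation of same-numbered deviations, over 0.1 in every pair, the numbers paired neither set: after TAC it ranged from -0.52 to 0.57, with 2 of 6 libraries closest to their own number. In sham all 6 were above 0 (0.068 to 0.35, 4 over 0.1), with 5 of 6 closest to their own number, a hint of pairing from the data and not from the labels. The sham count of 2148 became 1137 with all 6 groups and 3394 with the replicate block, and 1625 to 2315 on leaving out 1 library. The 21 differences between the states became 8 with the same total per library, 56 with all 6 groups and 116 with DESeq2, and 9 to 79 on leaving out 1 library. The 228 calls of IRS1KO TAC against WT TAC became 130 with a mean of at least 50, 643 with all 6 groups and 56 with the replicate block; omission of 1 library gave 150 (IRS1KO TAC replicate 2) to 435 (IRS1KO TAC replicate 5). IRS2KO TAC against WT TAC stayed at 0 on each omission of a library. Of the 66 single genes, 42 were called. Each of the 66 was tested in at most 27 alternatives. Cadm1, Efhd1, Trim12a, Trim30d, Trim5, Trim34a, Mmp3, Upk3b and Msln were tested in 26. Of the 42, 30 kept the call in each alternative that tested them and 12 lost it in at least 1. With the replicate block 9 lost it, by limma adjusted p: Irs1 (0.13), Ndnf (0.064), Parm1 (0.090), Trappc6a (0.058), Trim34a (0.093), Hspa8 (0.18), Asb1 (0.18), Atp11a (0.13) and Trappc5 (0.072). Of the 24 not called, 16 passed in at least 1 alternative. Tnc reversed, from a log2 difference of 0.61 to -0.53 without IRS2KO TAC replicates 1 and 4 and to -0.33 without IRS1KO TAC replicate 5 as well. Except where stated, the cause was not tested. Other genes kept their direction in the alternatives run.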
